A study of Rattus norvegicus with 6 samples.

Results

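The 10 growth hormone and IGF axis genes were Igf1, Igfals, Igfbp1, Igfbp2, Igfbp3, Igfbp4, Ghr, Socs2, Stat5b and Egfr, taken by symbol from the 15645 gene symbols that could be matched to probes of the array. All 10 were on the array, with 21 probes in all, and all 21 probes were well above background on all 6 arrays. Liver RNA came from 6 male Sprague-Dawley (Crl:CD(SD)) rats, an outbred stock, purchased at 5 weeks of age and kept on a basal diet. Corn oil was given to 3 of the rats. The other 3 were dosed with carbon tetrachloride (CCl4), 100 mg/kg/day, a solvent that injures hepatocytes once cytochrome P450 has converted it. The labels give no corn oil dose, and they disagree on exposure, which is 9 weeks in the treatment protocol and 28 days in the series design. Each rat gave 1 array, and per the labels the 6 were separate animals.

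Growth hormone from the pituitary binds its receptor on hepatocytes, where the kinase JAK2 phosphorylates the transcription factor STAT5B. STAT5B switches on Igf1, Igfals and feedback inhibitors such as Socs2 and Cish. Circulating IGF-1 is made largely by the liver and travels bound to IGF binding proteins, above all in a complex with IGFBP-3 and the acid-labile subunit that Igfals encodes. In adult male rats growth hormone is released in separate pulses, and this pattern maintains the male set of liver enzymes.

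Levels are log2 of the array's background-subtracted signal minus the 75th percentile of that array, so that a value of 0 is the signal at that percentile, and a change is the CCl4 mean minus the corn oil mean on this scale. The signal of 1 probe cannot be set against that of another, so levels are compared between rats and not between genes. In RNA from whole liver, fewer cells of a type and less RNA per cell cannot be told apart. The 75th percentile was 582.6 to 675.6 units per array. Alb, the albumin gene that marks hepatocytes, was at 9.45 to 9.93 on the 6 arrays. The arrays lay on 2 slides: all 3 of corn oil shared a slide with CCl4 replicate 1, while CCl4 replicates 2 and 3 had their own, so a comparison within a slide has 1 CCl4 rat only.

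The proximal promoters of 4 genes are shown because Igfals and Igf1 were the members whose groups did not overlap, while Igfbp1 and Igfbp2 differed widely between rats of 1 group. Each sequence holds the 250 bases before the RefSeq gene start in the GRCr8 assembly, 5′ to 3′ on the strand of the gene. Capitals mark CAAAACAA, the core of the insulin response motif known from the IGFBP1 promoter. The Igfals sequence is at chr10:14403600-14403849, plus strand. The Igf1 sequence is at chr7:24172282-24172531, plus strand. That of Igfbp1 is at chr14:86261027-86261276, plus strand, and that of Igfbp2 is at chr9:81864561-81864810, plus strand.
Igfals: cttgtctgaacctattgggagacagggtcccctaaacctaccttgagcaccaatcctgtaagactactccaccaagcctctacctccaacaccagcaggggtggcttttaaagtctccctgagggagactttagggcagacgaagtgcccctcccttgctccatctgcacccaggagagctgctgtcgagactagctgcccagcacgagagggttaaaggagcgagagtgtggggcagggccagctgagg
Igf1: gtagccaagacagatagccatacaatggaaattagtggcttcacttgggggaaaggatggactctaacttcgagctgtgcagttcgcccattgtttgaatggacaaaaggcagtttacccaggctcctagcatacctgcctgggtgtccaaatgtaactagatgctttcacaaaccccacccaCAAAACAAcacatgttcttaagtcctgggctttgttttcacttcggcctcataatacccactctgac
Igfbp1: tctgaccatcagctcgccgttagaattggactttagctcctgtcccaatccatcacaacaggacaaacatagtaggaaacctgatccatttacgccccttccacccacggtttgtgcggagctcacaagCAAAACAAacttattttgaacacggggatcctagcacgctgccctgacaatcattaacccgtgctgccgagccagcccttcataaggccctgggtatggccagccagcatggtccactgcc
Igfbp2: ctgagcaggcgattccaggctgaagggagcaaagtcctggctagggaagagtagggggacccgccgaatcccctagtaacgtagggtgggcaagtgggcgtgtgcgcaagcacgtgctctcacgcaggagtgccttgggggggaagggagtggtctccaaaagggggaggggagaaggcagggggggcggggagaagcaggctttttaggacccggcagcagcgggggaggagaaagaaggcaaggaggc
RefSeq promoters were at hand for 9 of the 10 genes, all but Socs2. CAAAACAA, searched on both strands, was found once in Igfbp1, from -121 to -114 relative to the gene start, and once in Igf1, from -67 to -60, against 1.94% of 33469 promoters of this length. The STAT5 motif TTCNNNGAA (both strands) was in none of the 9 sequences and in 7.67% of all promoters, and the forkhead motif TGTTTAC (both strands) was in none of the 9 and in 3.21% of all. The TATA box TATAAA, on the strand of the gene, was found in Igfbp4 alone, from -40 to -35, and in 8.06% of all promoters. A match is a description of letters, and a missing match says only that these letters are not in this window. Bases were 57.2% G or C in the Igfals sequence, 46.8% in Igf1, 52.8% in Igfbp1 and 64% in Igfbp2.

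**Figure D1:**
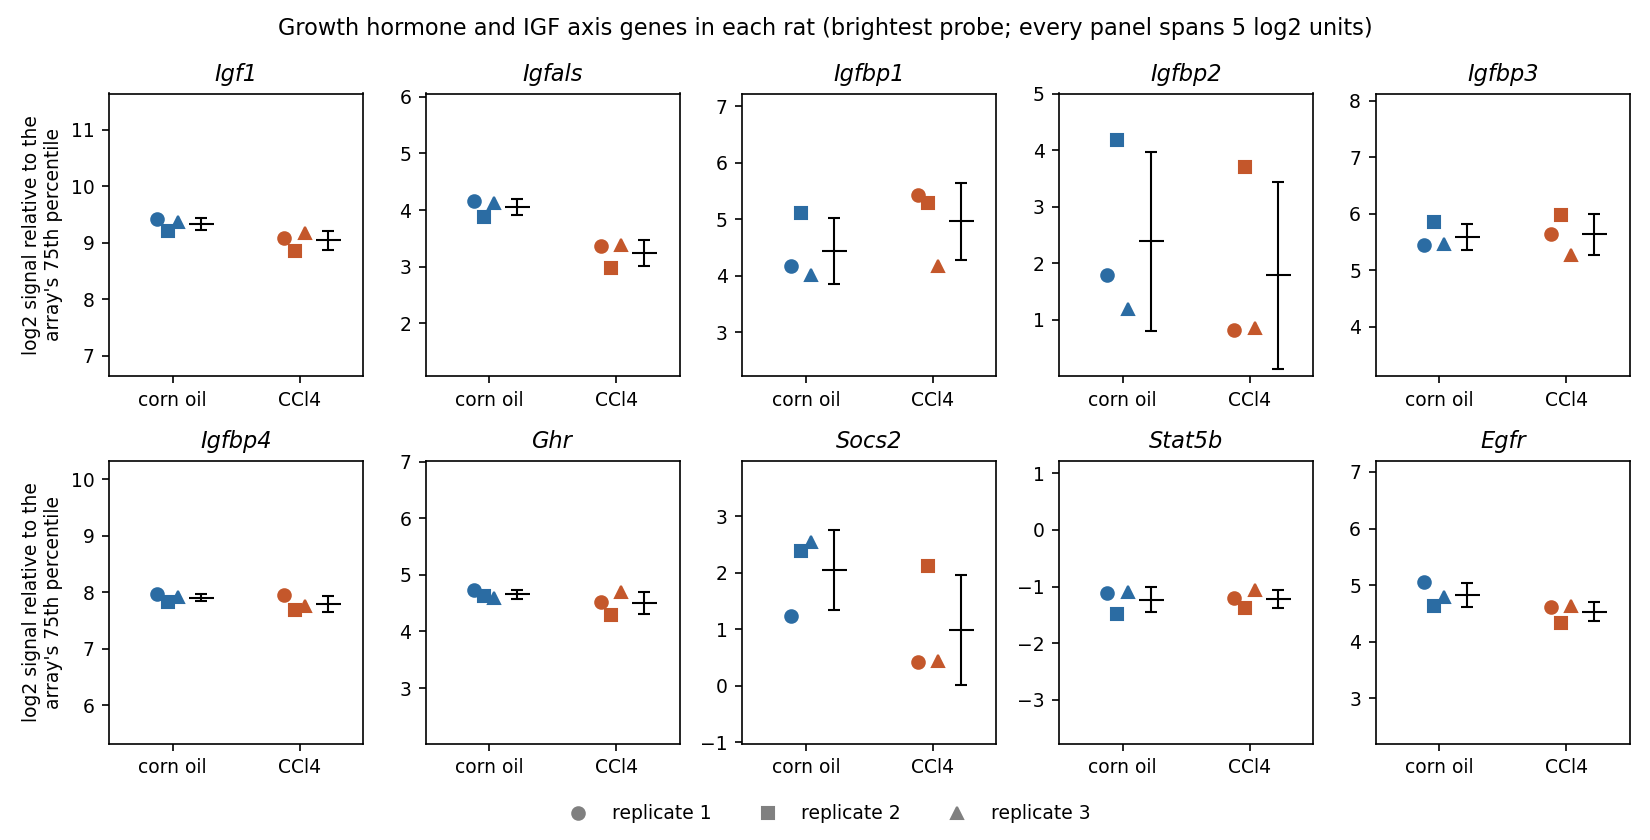
Log2 signal relative to the array's 75th percentile (y axis) of the brightest probe of each gene in the 3 corn oil rats (blue) and 3 CCl4 rats (orange), with marker shapes for replicate numbers and black bars for the group mean ± SD. The groups do not overlap for Igf1 and Igfals, while replicate 2 of each group lies far above the other 2 rats of its group for Igfbp2.

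None of the 10 genes passed limma's test across all genes (smallest Benjamini-Hochberg adjusted p = 0.0725, for Igfals), where 0.637% of the 11939 genes tested passed. At an unadjusted p below 0.05 there was 1 member, Igfals, where 19.7% of all genes tested lay below it. Of the 10 genes 7 had a negative and 3 a positive change, with a median of -0.22, where 57.2% of all genes tested had a negative change and their median was -0.05. Groups did not overlap for 2 members, both lower in CCl4, where 15.9% of all genes tested did so in this direction, and 0 were higher, where 11.5% were. Of the 21 probes 0 passed across the 40478 probes tested, where 0.341% did, and 4 had an unadjusted p below 0.05, where 16% did. The change was negative for 13 of the 21, where 55.7% of all probes tested were negative. Groups did not overlap for 4 probes that were lower in CCl4, where 13.7% of all probes were, and for 1 that was higher. With 3 rats a group, a p that misses the threshold does not show that the groups were alike, and each interval below gives the changes that remain possible.

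Of the circulating complex, the gene with the clearest difference was Igfals, the acid-labile subunit that prolongs the life of IGF-1 in plasma. The level of Igfals was 4.15, 3.88 and 4.12 in the corn oil rats and 3.37, 2.97 and 3.38 in the CCl4 rats. Every CCl4 rat was below every corn oil rat, and replicate 2 was the lowest of its group on both sides. The Igfals signal was 1.76-fold lower in CCl4 (log2 change -0.81 ± 0.16, SE, n = 3 per group, 95% interval -1.19 to -0.44; limma adjusted p = 0.0725). It ranked 210 from the most negative of the 11939 genes tested. Igfals has 1 probe, A_43_P12769, so no second probe bears on this value. CCl4 replicate 1 alone, on the slide of the corn oil arrays, was 0.68 below their mean on the log2 scale, and leaving out any 1 rat left the change at -0.90 to -0.68 with limma adjusted p of 0.0772 to 0.216. Igfals passed under normexp, another background correction, which gave -0.84 with limma adjusted p = 0.0474.

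Igf1 encodes the growth factor itself and was measured by 3 probes, which were all lower in CCl4. On the brightest, A_44_P366723, Igf1 was at 9.43, 9.22 and 9.37 in corn oil and at 9.09, 8.86 and 9.18 in CCl4. On A_64_P052740, Igf1 was at 8.58, 8.45 and 8.64 in corn oil and at 8.22, 7.94 and 8.32 in CCl4. On A_44_P126021, Igf1 was at 6.29, 5.97 and 6.39 in corn oil and at 5.76, 5.53 and 5.91 in CCl4. The groups did not overlap on any of the 3 probes, and replicate 2 was again the lowest rat of its group on each. The changes were -0.30 ± 0.13 for the brightest probe (SE, 95% interval -0.60 to 0.01, 1.23-fold lower; limma adjusted p = 0.259 over genes), -0.39 ± 0.14 for the second and -0.48 ± 0.16 for the third, with adjusted p of 0.261 and 0.247 over probes. Probes of 1 gene share their RNA and are not replicates of each other. No spot of these probes was saturated. Quantile normalization, which forces the arrays to 1 distribution, took the change of the brightest probe to -0.09, where the median of all genes was at -0.04.

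**Figure D2:**
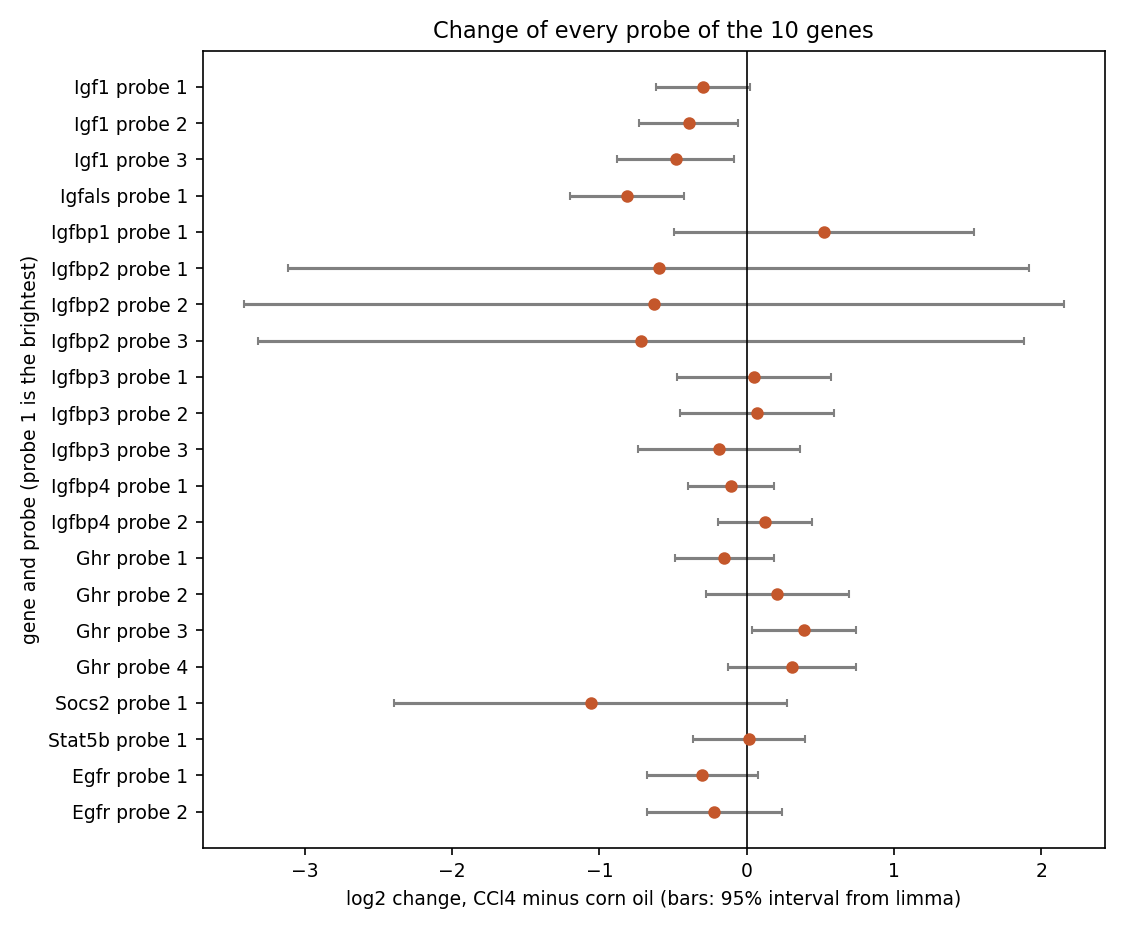
Log2 change, CCl4 minus corn oil (x axis), of each of the 21 probes of the 10 genes (y axis, ordered by gene and then by brightness), with bars for the 95% interval from limma. Without adjustment the intervals of Igfals and of 2 Igf1 probes lie below 0 and that of 1 Ghr probe lies above 0, and those of the Igfbp2 probes are the widest.

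None of the 4 binding protein genes passed, and their changes differed in sign. Igfbp3, which encodes the main carrier of IGF-1 in plasma, was at 5.44, 5.84 and 5.46 in corn oil and at 5.64, 5.98 and 5.27 in CCl4 on its brightest probe. The groups overlapped, and the change was 0.05 ± 0.21 (SE, 95% interval -0.47 to 0.56; limma adjusted p = 0.915). The other 2 Igfbp3 probes were at 0.07 ± 0.22 and -0.19 ± 0.23. Igfals and Igf1 were lower in every CCl4 rat and Igfbp3 was not, but the difference between these changes was not tested. Igfbp4, a secreted inhibitor of IGF action, was at 7.96, 7.83 and 7.92 in corn oil and at 7.95, 7.68 and 7.76 in CCl4 on its brightest probe. Its 6 rats spanned 0.28 on the log2 scale, the narrowest range of the 21 probes. The Igfbp4 change was -0.11 ± 0.11 (SE, 95% interval -0.38 to 0.17; limma adjusted p = 0.624), and its second probe was at 0.12 ± 0.13.

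Igfbp1, whose gene is repressed by insulin and which binds IGF-1 acutely, was the member with the largest positive change. Its level was 4.18, 5.11 and 4.02 in corn oil and 5.42, 5.28 and 4.17 in CCl4. Corn oil replicate 2 was near the 2 high CCl4 rats, and CCl4 replicate 3 was near the other 2 corn oil rats. The change of 0.52 ± 0.42 (SE, 95% interval -0.50 to 1.55) did not pass (limma adjusted p = 0.522). Without CCl4 replicate 3 it was 0.92 with limma adjusted p = 0.227, and without CCl4 replicate 1 it was 0.29.

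Igfbp2, which encodes a binding protein of fetal and fasted liver, varied more within the groups than any other member. On its brightest probe Igfbp2 was at 1.79, 4.19 and 1.20 in corn oil and at 0.82, 3.70 and 0.86 in CCl4. A single rat of each group, replicate 2 in both, stood far above the rest. Corn oil replicate 2 was 6.49-fold above the mean of the other 2 corn oil rats, and CCl4 replicate 2 was 7.28-fold above the mean of the other 2 CCl4 rats. The other probes gave 7.71-fold and 8.36-fold (A_64_P032415) and 6.25-fold and 8.63-fold (A_44_P547185) for the same rats, so all 3 Igfbp2 probes showed it. The SD within groups, pooled over both, was 1.62 for Igfbp2 and ranked 55 among the 11939 genes tested, whose median was 0.19. The change of -0.60 ± 1.05 (SE, 95% interval -3.15 to 1.95; limma adjusted p = 0.785) was smaller than this spread. Without corn oil replicate 2 its sign turned, to 0.30, and without CCl4 replicate 2 it was -1.55.

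The receptor gene Ghr was measured by 4 probes that did not agree in sign. On the brightest, A_44_P320858, Ghr was at 4.74, 4.63 and 4.59 in corn oil and at 4.53, 4.29 and 4.69 in CCl4, a change of -0.15 ± 0.13 (SE, 95% interval -0.47 to 0.17; limma adjusted p = 0.548). On A_43_P11817, Ghr was at 1.90, 1.64 and 1.42 in corn oil and at 2.06, 2.04 and 2.03 in CCl4. Here every CCl4 rat was above every corn oil rat, where 9.69% of all probes tested were higher without overlap, and the change was 0.39 ± 0.15 (limma adjusted p = 0.278 over probes). The remaining probes, A_64_P041812 and A_44_P360845, were at 0.21 ± 0.20 and 0.31 ± 0.18. The brightest probe minus A_43_P11817 was 2.84, 3.00 and 3.17 in corn oil and 2.47, 2.26 and 2.66 in CCl4. For A_44_P360845 this difference was 4.51, 4.79 and 4.96 in corn oil and 4.41, 4.17 and 4.31 in CCl4. The groups thus did not overlap for these probes, whereas they overlapped for A_64_P041812. An exact permutation test cannot decide whether the Ghr probes differed in their change, since 3 rats against 3 cannot reach the threshold (smallest two-sided p = 0.1). Without CCl4 replicate 2 the change of the brightest Ghr probe was -0.0459, and without CCl4 replicate 3 it was -0.25. With the mean of the 4 probes the Ghr change was 0.19.

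Stat5b, the transcription factor that carries the growth hormone signal, was measured by 1 probe. It was at -1.11, -1.49 and -1.10 in corn oil and at -1.20, -1.38 and -1.07 in CCl4. The groups overlapped throughout, with a change of 0.02 ± 0.15 (SE, 95% interval -0.35 to 0.39; limma adjusted p = 0.962). The sign turned under quantile normalization (-0.0042), median scaling (-0.0126) and normexp (-0.07). Its paralog Stat5a was at 0.25 ± 0.16, and Jak2, the receptor's kinase, at 0.41 ± 0.12 (limma adjusted p = 0.139) with every CCl4 rat above every corn oil rat on both of its probes.

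Egfr, the receptor for epidermal growth factor, is abundant in liver and depends in part on growth hormone there. Its brightest probe was at 5.05, 4.64 and 4.79 in corn oil and at 4.61, 4.33 and 4.64 in CCl4. Corn oil replicate 2 and CCl4 replicate 3 were level, so the groups overlapped by a single pair, and replicate 2 was the lowest rat of its group on each side. The Egfr change was -0.30 ± 0.15 (SE, 95% interval -0.67 to 0.07, 1.23-fold lower; limma adjusted p = 0.323), and the second probe was at -0.22 ± 0.19. Without corn oil replicate 1 these values were -0.19 and -0.0813, and without CCl4 replicate 2 they were -0.20 and -0.09.

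Socs2 encodes the feedback inhibitor of the growth hormone receptor and had the most negative change of the 10 genes. Its level was 1.24, 2.38 and 2.54 in corn oil and 0.42, 2.12 and 0.45 in CCl4. CCl4 replicates 1 and 3 were the lowest rats, but CCl4 replicate 2 was near the high corn oil rats and corn oil replicate 1 was well below them. The change was -1.06 ± 0.56 (SE, 95% interval -2.41 to 0.29, 2.08-fold lower) and did not pass (limma adjusted p = 0.339). The SD within groups was 0.85, which ranked 316 of the 11939 genes tested. Leaving out 1 rat moved the change from -1.62 (without CCl4 replicate 2) to -0.77 (without CCl4 replicate 1).

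**Figure D3:**
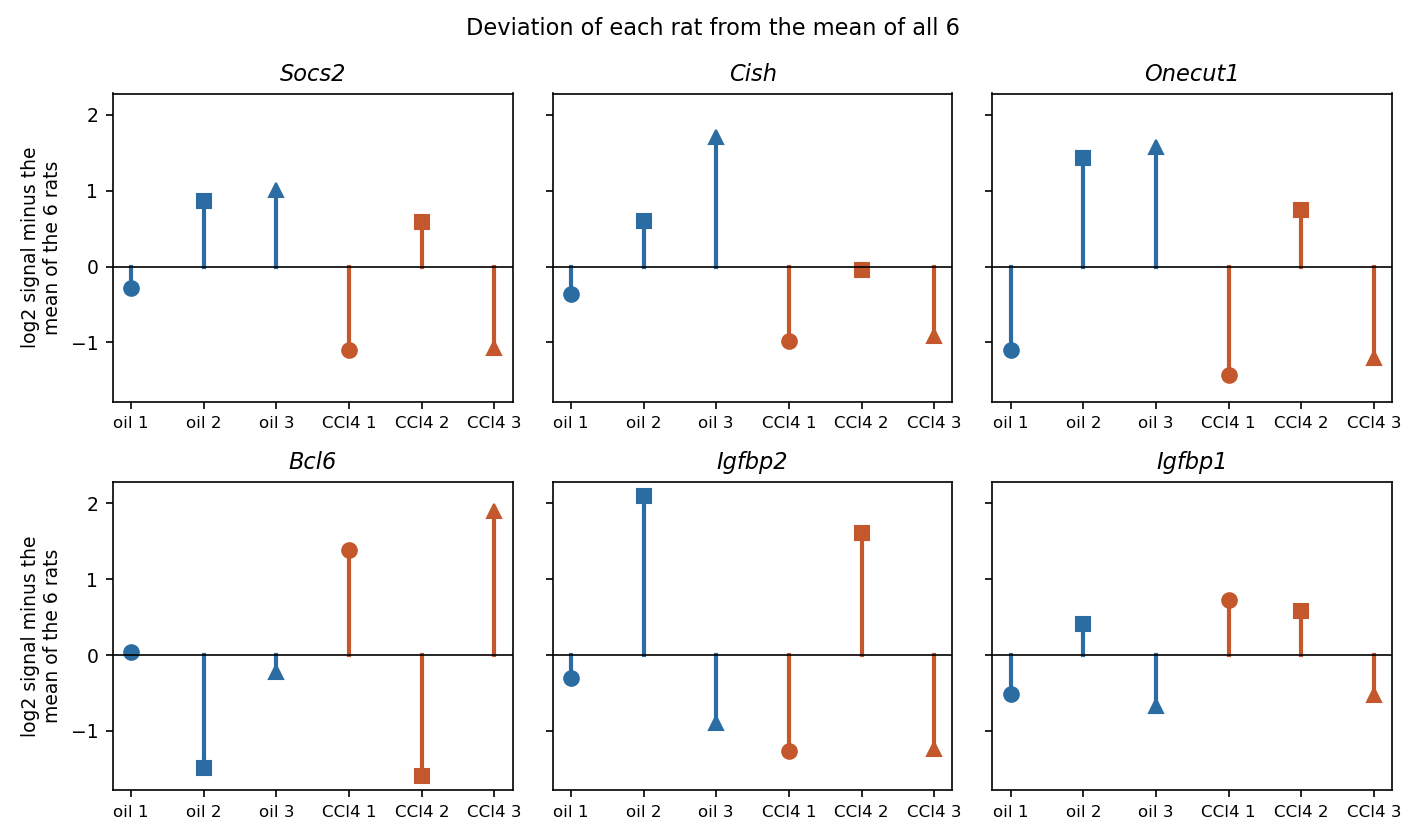
Log2 signal of the brightest probe minus the mean of the 6 rats (y axis) for 6 genes in each rat (x axis), corn oil in blue and CCl4 in orange. Socs2 and Onecut1 lie below their mean in corn oil replicate 1 and CCl4 replicates 1 and 3, Bcl6 is lowest in replicate 2 of each group, and Igfbp2 is highest there.

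Onecut1, Cish and Bcl6, which are also known to respond to growth hormone pulses through STAT5, differed widely between rats of 1 group as well. Not all targets of STAT5 did so. The SD within groups, pooled over both, was 0.14 for Igf1 and 0.20 for Igfals, beside 0.85 for Socs2. Onecut1, Cish and Bcl6 were named for the size of their change, a rule that favours genes that vary between rats. Wide spread was also not particular to them. The SD in corn oil and in CCl4 was 1.29 and 0.78 for Trib3, and 0.76 and 0.65 for the hepatocyte marker Tat. Whether growth hormone pulses had a part in the spread between rats was not tested. Onecut1, which encodes the liver factor HNF6 and is induced by growth hormone, was at 2.76, 5.30 and 5.44 in corn oil and at 2.43, 4.61 and 2.66 in CCl4. The same 3 rats were low for Onecut1 as for Socs2, and its second probe put the same 3 rats lowest (1.60, 4.14 and 4.25 in corn oil and 1.23, 3.65 and 1.86 in CCl4). Cish, a feedback inhibitor of the same family as Socs2, was at -1.16, -0.19 and 0.91 in corn oil and at -1.78, -0.83 and -1.70 in CCl4 on its brightest probe. For Cish the order was partly that of Socs2, with CCl4 replicates 1 and 3 and corn oil replicate 1 lowest, but its second probe placed CCl4 replicate 2 lowest instead, at -1.60. Bcl6, a repressor that STAT5 switches off in liver, was at 2.86, 1.33 and 2.59 in corn oil and at 4.20, 1.22 and 4.72 in CCl4. Bcl6 was thus highest in CCl4 replicates 1 and 3, where Socs2 was lowest, and lowest in replicate 2 of each group. The corn oil rats did not show this opposite order. Bcl6 was similar in corn oil replicates 1 and 3, where Socs2 was lowest (1.24) and highest (2.54) of that group. Onecut1 spanned 8.03-fold over the 6 rats, Bcl6 11.3-fold, Cish 6.45-fold and Socs2 4.34-fold. None of these differences between groups passed (limma adjusted p = 0.459 for Onecut1, 0.537 for Bcl6 and 0.255 for Cish). On the brightest probe the groups overlapped for each of these 4 genes, whereas on the second Cish probe every CCl4 rat was below every corn oil rat (-0.92 ± 0.31; limma adjusted p = 0.241 over probes).

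Over the 14 genes from the receptor to STAT5, of which 13 were tested, Ghr, Stat5b and Socs2 among them, 0 passed in either direction and the median change was 0.02. Prlr, the prolactin receptor, had the most negative value (-2.48 ± 1.69) but was at 0.68, -3.74 and -1.16 in corn oil and -2.57, -1.84 and -7.26 in CCl4, and was well above background on 2 of 3 CCl4 arrays. Socs3, an inhibitor that cytokines induce, was lower in every CCl4 rat on its brightest probe (-0.50 ± 0.24, limma adjusted p = 0.305) but overlapped on its second (-0.30). Ptpn11, a phosphatase of the pathway, was higher in every CCl4 rat on its brightest probe (0.48 ± 0.14, limma adjusted p = 0.144). Its dimmer probes were at 0.46, 0.08 and 0.18, each with overlapping groups. Of 17 IGF ligands, receptors, binding proteins and proteases 11 were tested, 0 passed, 6 had a positive and 5 a negative change, and the median was 0.05. Igf2, the fetal ligand, was at -0.30 ± 0.28, Igf1r, the receptor for IGF-1, at 0.43 ± 0.22 and Igfbp7 at 0.28 ± 0.19, each with overlapping groups. Igfbp5 was not well above background on any array and was not tested. The proteases Pappa and Pappa2 and their inhibitors Stc1 and Stc2 were not tested either.

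In the insulin and IGF receptor signalling list 16 of 17 genes were tested, 0 passed and the median was -0.04. Irs2, the main insulin receptor substrate of liver, had the smallest adjusted p of this list, at 0.96, 1.25 and 1.51 in corn oil and 0.36, 0.69 and 0.41 in CCl4. Every CCl4 rat was lower for Irs2 (-0.75 ± 0.17, limma adjusted p = 0.0998) on its brightest probe, while its 3 dimmer probes changed by -0.29, -0.27 and 0.13. The dimmer probes had levels of -5.39 to -3.66, near the lowest values well above background on these arrays (-5.66 to -4.98). The probe at -0.27 was well above background on 2 of 3 CCl4 arrays. Trib3, an inhibitor of AKT, varied between rats (0.85 ± 0.70), and Pik3r1, the regulatory subunit of PI3-kinase, was at 0.29 ± 0.11. Among the ErbB receptors, ligands and feedback regulators 10 of 15 were tested, 0 passed and the median was -0.23. Nrg1, a ligand of ERBB3, was at -2.15, -0.40 and -2.09 in corn oil and 0.57, 0.98 and -0.89 in CCl4 (1.77 ± 0.65; limma adjusted p = 0.217), and its other 2 probes were at 1.45 and 1.59. The groups overlapped for Nrg1, since corn oil replicate 2 was above CCl4 replicate 3. Errfi1, a feedback inhibitor of EGFR, was at -0.72 ± 0.25, Egf at -0.65 ± 0.24, and Erbb3 at -0.50 ± 0.14 with every CCl4 rat lower on both of its probes.

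**Figure D4:**
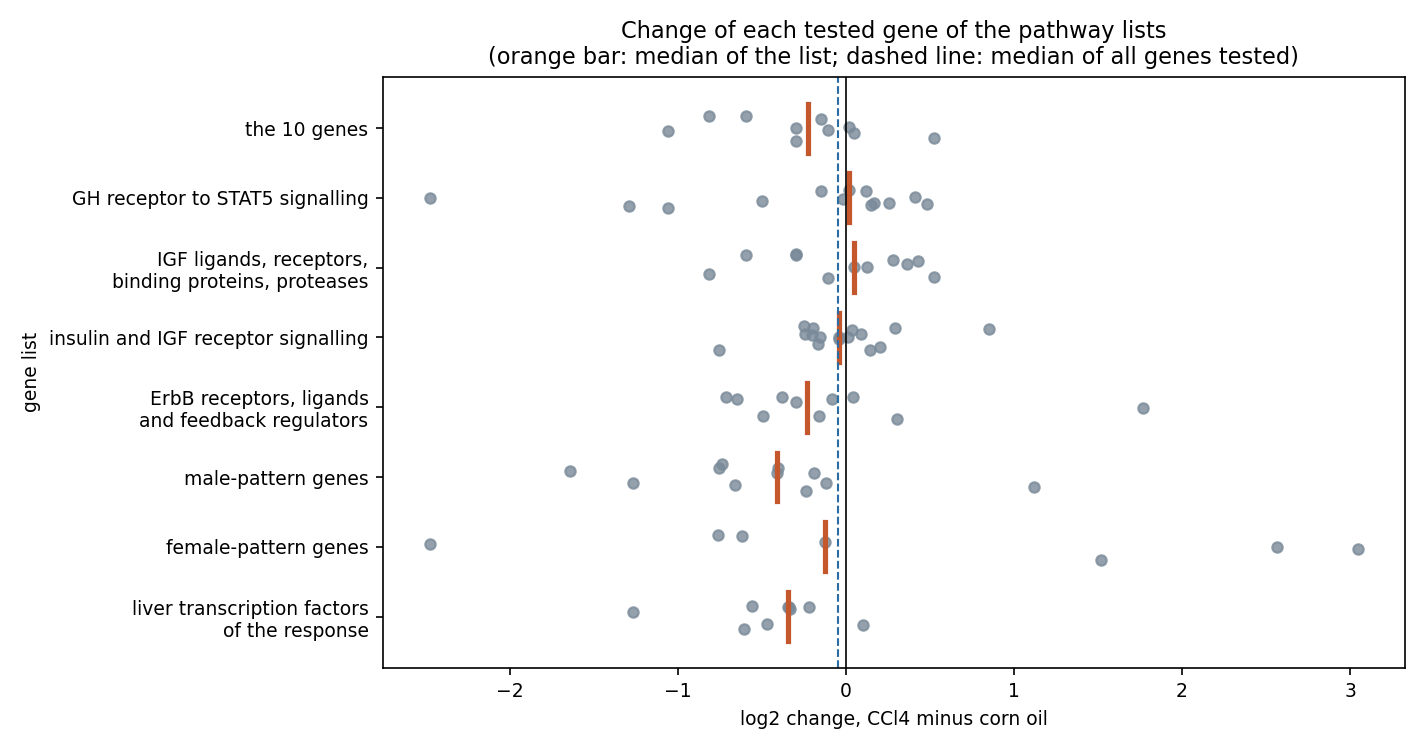
Log2 change, CCl4 minus corn oil (x axis), of each tested gene (grey points, spread vertically for legibility) in the list of the 10 genes and the 7 pathway lists (y axis), with an orange bar at the median of each list and a dashed line at -0.05, the median of all genes tested. The median is most negative for the male-pattern genes, at -0.41, and a gene may stand in more than 1 list.

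Liver genes that follow the sex pattern of growth hormone did not pass in either direction. All 11 male-pattern genes were tested, 10 had a negative change, where 57.2% of all genes tested did, and 0 passed, with a median of -0.41 beside -0.05 over all genes. Cyp3a2, a testosterone hydroxylase, was at 9.07, 8.52 and 9.18 in corn oil and 6.85, 7.05 and 7.94 in CCl4 (3.13-fold lower, -1.64 ± 0.32; limma adjusted p = 0.0756). Cyp2c11, the main male-specific P450, was at 8.54, 8.38 and 8.69 in corn oil and 6.94, 6.40 and 8.47 in CCl4 (-1.27 ± 0.51; limma adjusted p = 0.244). CCl4 replicate 3 was near the corn oil rats for Cyp2c11, so that the groups overlapped. Mup4, a urinary protein gene, was at -0.66 ± 0.25 on its brightest probe, where CCl4 replicate 3 (8.35) was nearly level with corn oil replicate 3 (8.36), and the groups overlapped on its second probe. The steroid enzyme gene Hsd3b5 was lower in every CCl4 rat on all 3 of its probes (-0.41 ± 0.15 on the brightest). Of the 7 female-pattern genes 4 had a negative and 3 a positive change, 0 passed, and the median was -0.13. Cyp2c12, the female-specific P450, was at 0.87, 4.29 and 3.53 in corn oil and 5.77, 5.47 and 5.15 in CCl4. Every CCl4 rat was higher for Cyp2c12 (2.57 ± 0.84; limma adjusted p = 0.184), and corn oil replicate 1 lay far below the other corn oil rats. Sult2a1 and Cyp2a1 of the same list went the other way, with every CCl4 rat below every corn oil rat. Their changes were -0.76 ± 0.20 for Sult2a1 (limma adjusted p = 0.118) and -0.62 ± 0.17 for Cyp2a1 (limma adjusted p = 0.136). Srd5a1, steroid 5-alpha reductase, was at 3.05 ± 2.89, with corn oil replicate 3 at -7.38 and not well above background on the brightest probe, whereas its second probe gave 0.68 in that rat and a change of -0.35. Genes of the P450 and urinary protein families have close copies, and probes of 1 may read another.

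The 9 liver transcription factors that shape the response were all tested, and 0 passed. Of these 8 had a negative change, where 57.2% of all genes tested did, with a median of -0.35. Cebpa was lower in every CCl4 rat (-0.47 ± 0.16; limma adjusted p = 0.192), as was Hnf4a (-0.34 ± 0.17), both regulators of hepatocyte genes. Foxa3 was at -0.61 ± 0.24, Cebpb at -0.34 ± 0.24 and Foxa2 at -0.22 ± 0.36, each with overlapping groups. Foxa1 was at 0.10 ± 0.12 on its brightest probe and at -0.53 on its second, with overlapping groups on both. CCl4 livers also differed in markers of cell types. Of 13 hepatocyte markers 12 had a negative change, where 57.2% of all genes tested did, and 0 passed, with a median of -0.23. Their summed linear level, in multiples of the 75th percentile, was 6457 to 6837 in corn oil and 5276 to 6001 in CCl4. Of the 10 members 7 had a negative and 3 a positive change, with a median of -0.22. All 9 recruited macrophage markers had a positive change, and 3 of them passed. These were Trem2 at 4.33, Gpnmb at 3.04 and Lgals3 at 2.36 on the log2 scale (limma adjusted p = 0.0106, 0.0462 and 0.00729). The summed level of the 9 markers was 34.9 to 41.8 in corn oil and 86.5 to 92.1 in CCl4. The summed level of 12 stellate cell and fibroblast markers was 46.3 to 57.0 in corn oil and 63.3 to 90.3 in CCl4, with 0 past the threshold. Resident macrophage markers summed to 161 to 196 and 132 to 169, and endothelial markers to 44.4 to 52.6 and 37.4 to 44.9, in corn oil and CCl4, with 0 of 9 and 0 of 6 past the threshold. For bile duct markers (5 tested, 0 past the threshold) the sums were 1.41 to 1.54 and 1.78 to 4.49. Among them Spp1, also a recruited macrophage marker, had levels of -1.02, -2.19 and 1.57 in CCl4. The changes of the others were 0.52 for Epcam, 0.50 for Cftr, 0.01 for Krt7 and -0.17 for Krt19. For lymphocyte markers (7 tested) the sums were 4.10 to 5.20 and 3.55 to 3.79. Gzma was lower (-1.32, limma adjusted p = 0.0252), while Cd3e (0.90), Cd3d (0.19) and Cd4 (0.14) had positive changes and the other 3 negative ones. For erythroid markers (5 tested, 0 past the threshold) the sums were 585 to 942 and 321 to 1021. A sum weighs the strongest signals most. The largest changes in the remaining marker lists were -0.53 for Apoa1, 0.91 for Marco, 1.22 for Timp1, -0.38 for Kdr, 1.46 for Spp1 and 0.43 for Slc4a1, none of which passed. The part of any cell type in the values of the 10 genes was not tested.

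The genes whose levels followed Igfals most closely over the 6 arrays were Wipi2 and Atg9a, both of autophagy, and Usf2, a transcription factor, with Pearson r of 0.998, 0.997 and 0.997. Closest to Socs2 were Parn (0.987), Smad1 (0.986) and Mrgpre (0.980), and closest to Igfbp2 were Or13n4b (0.982), Shd (0.980) and Eef1d (0.978). With 11939 genes and 6 arrays that share a treatment, such values describe likeness only. The changes of these neighbours were -0.15 for Atg9a, -0.50 for Wipi2 and -0.63 for Usf2, and none passed limma's test (adjusted p = 0.100 for Wipi2 and Usf2).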

How the data were processed

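Total RNA from 6 rat livers was labelled with Cy3 and hybridised to 1-colour Agilent arrays, per the labels' protocols. Groups followed the treatment label, and titles gave the replicate numbers. Spot intensity in the deposited files came from Agilent Feature Extraction, run by the authors (10.7 in the submitters' processing notes), with background already subtracted per the file headers. A second deposited table gives that signal as a linear ratio to 583.3 to 676.5 units per array, with column medians of 0.103 to 0.110; this scaling was inferred from the values. The array design names the rn4 build, so probe coordinates are not given.

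Of 61537 probes other than 1439 control spots, 28206 (45.8%) matched 1 symbol through the RefSeq accession, and 33331 matched none; gene names and promoters are RefSeq's (GRCr8). Control spots and 26 outlier-flagged probes were left out. Probes well above background on at least 3 of 6 arrays were tested, and each gene was represented by its brightest probe on average. Values were log2 signals minus each array's 75th percentile, tested with limma 3.58.1 (R 4.3.3, lmFit and eBayes, two-sided, Benjamini-Hochberg over all genes or probes, threshold 0.05). Precision is limited by the 3 arrays per group. The test was also run on simulated data with known changes, and the share recovered at the size of the members' changes is not given here. Alternatives are given under the dependence on processing; normexp (offset 50) used median spot signals. Deviations of same-numbered rats from their group means correlated at -0.0515, 0.162 and 0.0195, and those of other pairs at -0.18 to 0.147. With 3 rats a group these values cannot decide whether the numbers pair the rats.

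Named were all probes of the 10 genes, genes of each pathway list that passed or had the 3 largest changes, called genes and the largest change of each marker list, and the 3 closest genes by Pearson r of the 3 members that changed most; further list genes were chosen after their values were seen. A gene that this rule names is not reported here. The members and lists were chosen with earlier results of these data known. Python 3.11.15 with pandas 2.3.3, numpy 2.4.6, scipy 1.17.1 and matplotlib 3.10.9 was also used.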

Additional observations from a re-analysis of the deposited data

How the results depend on the processing

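Igfals, Igf1, Egfr and Socs2 kept a negative and Igfbp1 a positive change under every alternative run for genes, and Igfals (under normexp) was the only member to pass in any of them; adjusted p over these alternatives was 0.0474 to 0.316 for Igfals and 0.21 to 0.69 for Igf1. The number of members called was 1 under normexp and 0 under the other alternatives, and 0 over probes.

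Genes called (76) were 217 under normexp, 139 with the filter on all 6 arrays, 156 with a variance trend, 4 with slide as a fixed block, 0 within the first slide (1598 at an unadjusted p below 0.05 by limma) and 2 to 241 when 1 rat was left out (27, 43 and 5 without corn oil replicates 1, 2 and 3, and 6, 2 and 241 without CCl4 replicates 1, 2 and 3). Probes called (138) were 62 without a filter, 254 with a variance trend, 13 with slide as a fixed block, 0 within the first slide and 2 to 256 when 1 rat was left out. With the replicate number as a block 10 genes and 0 probes were called and no member was. The Igfbp2 change under this block was -0.60 ± 0.16 (SE, limma adjusted p = 0.182). Whether same-numbered rats share more than a number is not known. Signs turned without passing for Igfbp2 (-1.55 to 0.30 when 1 rat was left out, and -1.65 to 0.35 and -1.76 to 0.16 on its other probes, each highest without corn oil replicate 2), for Igfbp3 (-0.0231 with the mean of its probes; -0.13 to 0.23 when 1 rat was left out; A_44_P180127 -0.0291 under normexp and -0.0881 to 0.24 when 1 rat was left out; A_64_P046754 0.006 with slide as a fixed block or within the first slide and -0.32 to 0.0375 when 1 rat was left out), for Igfbp4 (0.0481 with slide as a fixed block or within the first slide, 0.0084 with the mean of its probes), for Ghr (0.19 with the mean of its probes; a second probe -0.0034 to 0.33 when 1 rat was left out) and for Stat5b (-0.0042 under quantile normalization, -0.0126 under median scaling, -0.0688 under normexp; -0.11 to 0.10 when 1 rat was left out).

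The median change of the 10 genes (-0.22) was -0.10 under quantile normalization, -0.17 with slide as a fixed block or within the first slide, -0.14 with the mean of a gene's probes and -0.23 to -0.15 when 1 rat was left out. The receptor to STAT5 list (0.02) was at 0.12 with probe means and -0.11 to 0.10 when 1 rat was left out; the IGF list (0.05) at -0.11 without a filter and -0.0761 to 0.21; the insulin list (-0.04) at -0.0712 under median scaling, -0.0117 under normexp and -0.0592 to 0.003; the ErbB list (-0.23) at -0.13 under normexp, -0.0214 without a filter and -0.26 to -0.19. The female-pattern list (-0.13) was at -0.35 with the filter on all 6 arrays, -0.37 with slide as a fixed block or within the first slide, -0.54 with probe means and -0.57 to -0.007 when 1 rat was left out. The transcription factor list (-0.35) was at -0.54 with slide as a fixed block or within the first slide and -0.46 to -0.31. The male-pattern list (-0.41) was at -0.55 to -0.27 when 1 rat was left out. The cause of these shifts was not tested.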
